A study of Mus musculus with 12 samples.

Results

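The myeloid immunity panel held 29 probes for CD-numbered leukocyte surface molecules, chosen by name (Cd followed directly by a digit) from 734 endogenous probes. CD numbers label cell-surface proteins by the antibodies that recognize them, so the set has no shared function: it holds costimulatory ligands and checkpoint receptors, SLAM family receptors, activation markers, antigen-presenting molecules, scavenger receptors and adhesion proteins. Whether a mast cell carries each of them decides which lymphocytes it can talk to and which signals restrain it. Transcripts were counted in bone marrow-derived mast cells (BMMCs), which were grown in IL-3 for at least 4 weeks from the marrow of 3 mice of C57BL/6 background aged 6 to 8 weeks. Cells of each mouse received siRNAs against Zc3h12a (si12A), against Zc3h12c (si12C), against both (si12A+C), or siGLO. The study used siGLO, a transfection indicator, as the control. This gave 4 groups of 3 samples. The labels number the samples of a group 1 to 3, and equal numbers are taken here, and wherever a mouse is named, to stand for cells of 1 mouse. All groups shared the stimulus: IgE with its antigen for 2 h, applied 48 h after transfection. There was no unstimulated group, so no value here is a response to IgE.

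Zc3h12a and Zc3h12c encode Regnase-1 and Regnase-3, RNA-binding endonucleases of the CCCH zinc finger family. Regnase-1 cleaves stem-loops in mRNAs of inflammatory genes and so shortens the life of those transcripts. Mast cells activate through FcεRI, the high-affinity IgE receptor, when antigen crosslinks the bound IgE. Neither siRNA target had a probe among those used here, so the knockdown itself could not be checked in these counts, and siRNA knockdown lowers a transcript without removing the gene.

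The siRNA sequences are shown because they define the groups. Each mixture held 4 siRNAs of 19 bases, printed 5′ to 3′ as listed by the study, with no strand or seed marked.
Zc3h12a siRNA 1: gcagagatcctgtcttaca
Zc3h12a siRNA 2: gagcgaggccacacagata
Zc3h12a siRNA 3: gaaatgtacgtatggaatc
Zc3h12a siRNA 4: gaaagggctggtgtatata
Zc3h12c siRNA 1: gcccaagtctggataattt
Zc3h12c siRNA 2: gcacttaagttaggttatt
Zc3h12c siRNA 3: gcactacacctttaagcaa
Zc3h12c siRNA 4: ggatattattccatgttga

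The libraries held between 439015 and 795758 counts in endogenous and reference probes, and the siGLO library of mouse 2 was the shallowest. The CD-numbered genes took 0.813% to 1.44% of these counts. All 8 mast cell markers were above background in all 12 libraries, Fcer1a among them with raw counts between 23503 and 41723. Of the markers of other cell types, 4 of 12 for macrophages and monocytes, 2 of 8 for neutrophils, 2 of 6 for eosinophils, 0 of 6 for dendritic cells and 3 of 8 for lymphocytes passed the same background rule. The defining macrophage genes Csf1r and C1qa, the neutrophil genes Ly6g and S100a8 and the B cell gene Ms4a1 did not pass it. Those that passed were Cx3cr1 (12 libraries), Adgre1 (10), Mrc1 (9) and Fcgr1 (8) for macrophages and monocytes, Camp and Mpo (3 each) for neutrophils, Siglecf and Ccr3 (12 each) for eosinophils, and Nkg7 and Gata3 (12 each) and Fcer2a (6) for lymphocytes. Because these were bulk samples, fewer cells of a type and less RNA per cell cannot be told apart.

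Each library has 8 negative control probes, and a gene was taken as above background where at least 3 samples had a raw count over their own library's control mean plus 2 SD. By this rule 17 of the 29 CD-numbered genes were above background. In 12 of 12 libraries these were Cd34, Cd244, Cd274, Cd47, Cd69, Cd84, Cd276, Cd68 and Cd180. Cd151 and Cd80 passed in 11 libraries, Cd40 and Cd86 in 10, Cd1d1 in 9, Cd99 in 7, and Cd247 and Cd74 in 3. The 12 genes that did not pass were Cd14 and Cd163 (2 libraries each), Cd209e, Cd44 and Cd83 (1 each), and Cd27, Cd28, Cd36, Cd38, Cd40lg, Cd70 and Cd1d2 (0). None of these 12 exceeded the controls in 3 libraries, which does not show that the transcript was absent. The highest raw count that any of them reached was 31, for Cd209e. Several of them are known for work in other leukocytes: Cd28 carries the second signal of T cells, Cd40lg and Cd70 are TNF family ligands of activated lymphocytes, Cd27 is the receptor of Cd70, and Cd36 is a fatty acid and scavenger receptor of macrophages. Cd44 binds hyaluronan, Cd38 degrades NAD and Cd83 marks mature dendritic cells. Their mean ratio to background ran from 0.305 for Cd70 to 0.692 for Cd209e. The 5 that passed in any library did so in 1 si12A library each for Cd209e and Cd44, 2 si12A+C libraries for Cd14, 1 si12A+C library for Cd83, and 1 si12C and 1 si12A+C library for Cd163, and in no siGLO library.

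**Figure D1:**
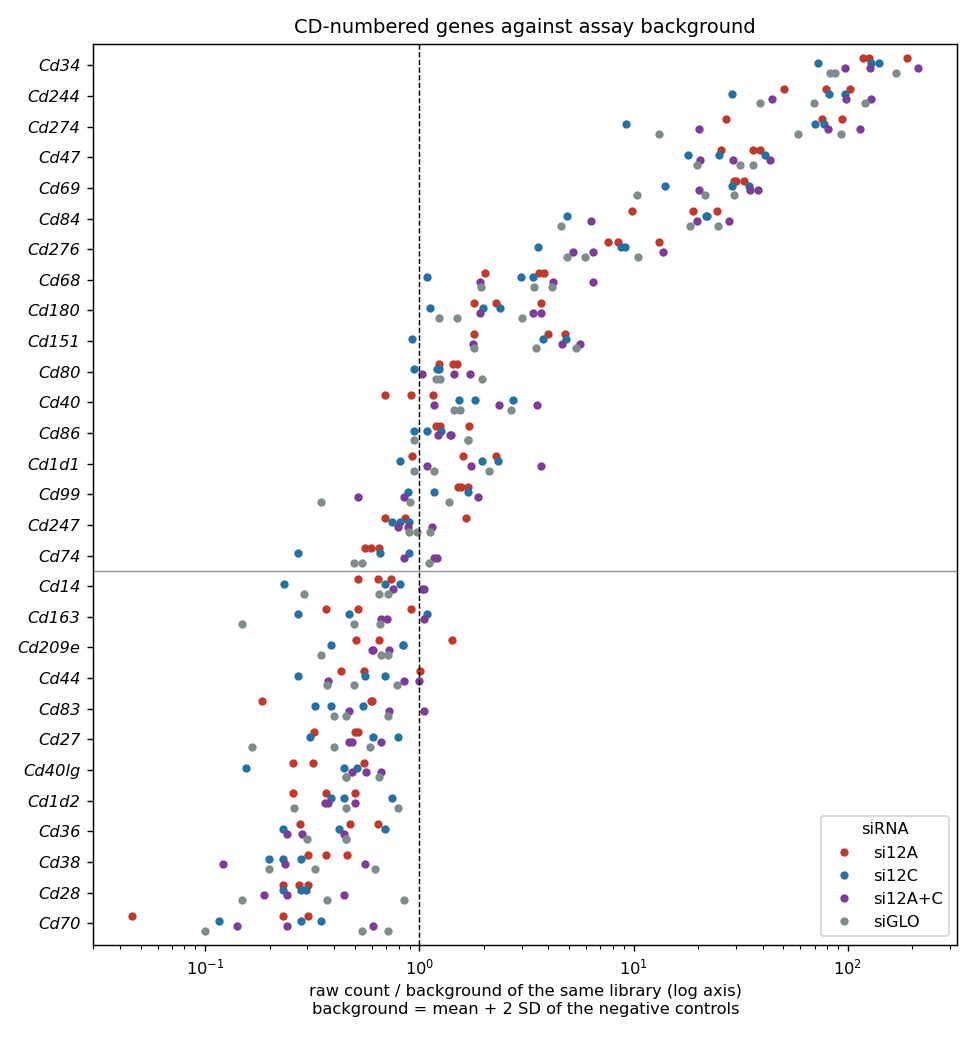
Raw count of each CD-numbered gene divided by its library's background (negative control mean plus 2 SD), on a log axis, with 1 point per library colored by siRNA group. The dashed line marks a ratio of 1 and the grey line separates the 17 genes that passed in 3 or more libraries from the 12 that did not. Cd34, Cd244 and Cd274 lie far above the line, with mean ratios of 129, 78.0 and 61.2, and the genes around the grey line straddle it.

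The members nearest the rule had counts of the size of the controls. Just inside it, Cd74 (the invariant chain of MHC class II) had raw counts of 13, 14 and 13 in si12A cells, 18, 7 and 14 in si12C cells, 20, 18 and 21 in si12A+C cells, and 13, 10 and 17 in siGLO cells of mice 1, 2 and 3. Cd247 (the zeta signaling chain of the T cell receptor and of some Fc receptors) lay between 15 and 36, and Cd99, an adhesion glycoprotein, between 7 and 39. Just outside it, Cd14 (the LPS co-receptor) lay between 5 and 21, Cd163 (the hemoglobin scavenger receptor of macrophages) between 3 and 22, and Cd209e, a lectin of the DC-SIGN family, between 7 and 31. The ranges on both sides of the rule overlap, so membership at this edge rested on single counts. Cd74 passed through 2 si12A+C libraries and 1 siGLO library. Cd99 passed in 3 si12A, 2 si12C, 1 si12A+C and 1 siGLO library. Cd40 passed in 1 si12A, 3 si12C, 3 si12A+C and 3 siGLO libraries. For these 3 genes some groups were at the level of the controls, which bounds how far a ratio between groups can be measured.

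Levels below are scaled counts, raw counts divided by the library's TMM scaling factor. They compare libraries for 1 gene and not 1 gene with another, since probes differ in how well they bind.

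Cd69, an early activation marker that holds lymphocytes in tissue by removing the S1P receptor from the surface, had its lowest values in siGLO cells. It had scaled counts of 592, 728 and 523 in si12A cells, 608, 517 and 568 in si12C cells, 617, 562 and 546 in si12A+C cells, and 476, 329 and 472 in siGLO cells of mice 1, 2 and 3. All 9 libraries with a Regnase siRNA were above the 3 siGLO libraries. The means were 614 ± 104 in si12A, 564 ± 45.6 in si12C and 575 ± 37.4 in si12A+C cells, against 426 ± 84.1 in siGLO cells (SD, n = 3 each).

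In the count model without a term for the mouse, the log2 difference of Cd69 from siGLO was 0.53 ± 0.19 in si12A cells, 0.41 ± 0.19 in si12C cells and 0.43 ± 0.19 in si12A+C cells (SE; adjusted p = 0.581, 0.999 and 0.743). With the mouse as a block the adjusted p-values were 0.0543, 0.531 and 0.113. None passed the threshold for a call, which asked for a log2 difference beyond 0.5 and an adjusted p no higher than 0.05. The 3 differences share the siGLO libraries, so they are not separate evidence. The ratio of si12A to siGLO was 1.24, 2.22 and 1.11 in mice 1, 2 and 3, and mouse 2 gave the highest si12A value and the lowest siGLO value. Without mouse 2 the log2 difference fell to 0.22 in the blocked fit (adjusted p = 0.305). It was 0.34 without the siGLO library of mouse 2 alone and 0.31 without the si12A library of mouse 2 alone (adjusted p = 0.225 and 0.228). Without mouse 1 it was 0.64 and passed (adjusted p = 0.00698), in a fit that called 74 of 465 probes. It was 0.12 with the positive control probes as scaling (adjusted p = 0.638). It was 0.80 with the 5 well-detected reference probes, which called it (adjusted p = 0.0142). These scalings moved the median log2 difference of all probes to -0.377 and 0.285. The scaling by reference probes called 103 of 496 probes.

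Cd34, a sialomucin of hematopoietic progenitors that mouse mast cells also carry, had scaled counts of 2298, 3096 and 3027 in si12A cells, 2262, 2670 and 2752 in si12C cells, 2227, 2686 and 3070 in si12A+C cells, and 1939, 2592 and 2700.1 in siGLO cells of mice 1, 2 and 3. Within each mouse the si12A library was above the siGLO library, by 1.19, 1.19 and 1.12 times, while the groups as such overlapped. The log2 difference for si12A was 0.22 ± 0.19 (SE; adjusted p = 0.755, and 0.119 with the mouse as a block). It ran from -0.179 with the positive control probes as scaling to 0.51 with the 5 well-detected reference probes. The latter called it (adjusted p = 0.0104), with 103 of 496 probes called in all. The median of all probes moved in the same way, to -0.377 and 0.285. The other activation and adhesion genes of the set, Cd83, Cd44 and Cd38, were not above background.

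**Figure D2:**
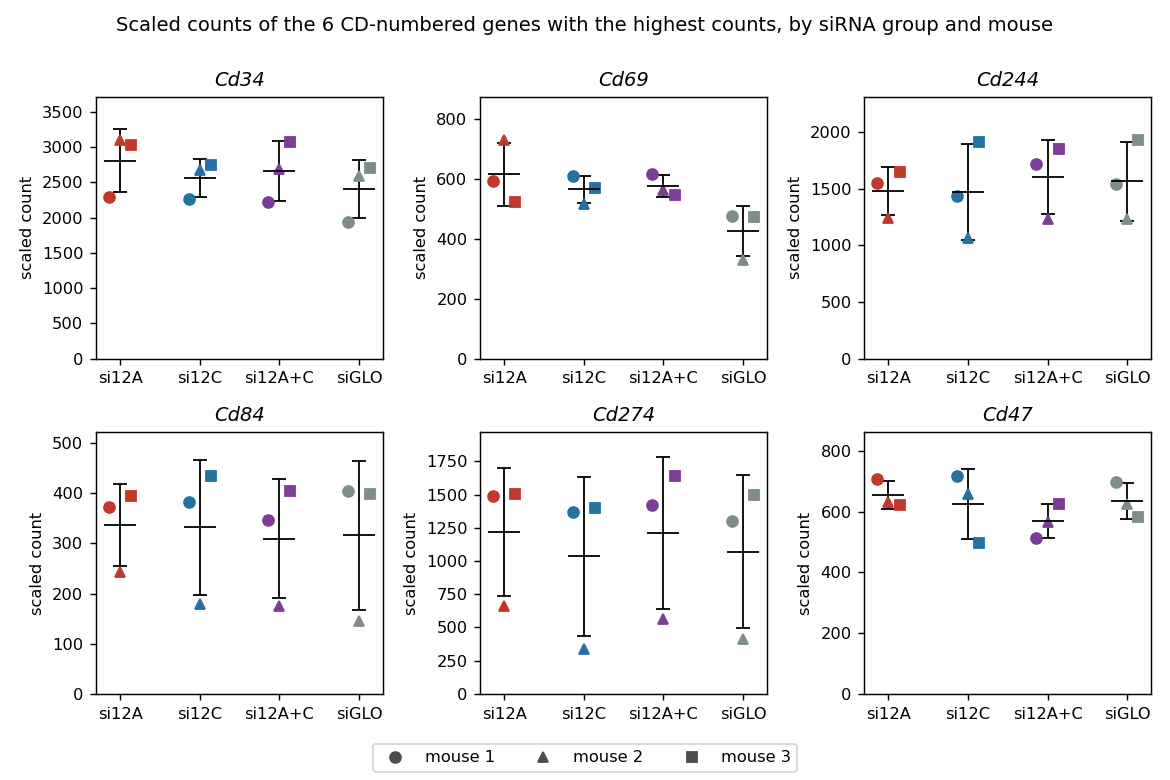
Scaled counts of the 6 genes with the highest counts in siGLO cells, by siRNA group, with 1 point per library (circle, triangle and square for mice 1, 2 and 3) and bars for the group mean ± SD (n = 3). For Cd69 the 3 siGLO points, at 329 to 476, lie below all others. For Cd274 and Cd84 the triangles of mouse 2 lie below the other points in every group.

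Among the B7 and CD28 families, which pass costimulatory or inhibitory signals to T cells, 4 of 5 genes were above background. Cd274 encodes PD-L1, the ligand of the checkpoint receptor PD-1. It had scaled counts of 1490, 665 and 1505 in si12A cells, 1367, 340 and 1396 in si12C cells, 1424, 563 and 1642 in si12A+C cells, and 1301, 413 and 1498 in siGLO cells of mice 1, 2 and 3. The spread between mice was larger than any difference between siRNA groups. The ratio of si12A to siGLO was 1.15, 1.61 and 1.01 in the 3 mice, and that of si12A to si12C was 1.09, 1.95 and 1.08. The si12A minus si12C difference was 0.24 ± 0.61 on the log2 scale without the mouse and 0.37 ± 0.15 with the mouse as a block (SE; adjusted p = 0.95 and 0.126), and it was 0.09 with the mouse 2 libraries left out of the blocked fit (adjusted p = 0.614).

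Cd276, which encodes the B7 family member B7-H3, averaged 188 ± 22.1 in si12A, 155 ± 20.7 in si12C and 152 ± 42.5 in si12A+C cells, against 151.0 ± 18.6 in siGLO cells (SD, n = 3 each). The si12A difference from siGLO was 0.31 ± 0.23 and that of si12A+C from si12A was -0.30 ± 0.23 on the log2 scale (SE; adjusted p = 0.696 and 0.999, and 0.162 and 0.349 with the block). The first ran from -0.0798 with the positive control probes as scaling to 0.59 with the 5 well-detected reference probes. The latter called it (adjusted p = 0.012), with 103 of 496 probes called in all. The median of all probes moved in the same way, to -0.377 and 0.285. In all 3 mice the si12A library was above its siGLO and its si12A+C counterpart. Cd80 and Cd86, the B7 ligands of CD28, lay close to background, with raw counts of 19 to 35 and 19 to 41, and Cd28 was below it. Cd80 averaged 28.2 ± 7.8 scaled counts in si12A, 28.7 ± 15.1 in si12C and 26.3 ± 2.07 in si12A+C cells, against 32.5 ± 6.41 in siGLO cells (SD, n = 3 each). Cd86 averaged 28.6 ± 12, 27.1 ± 11.8 and 27.0 ± 11 in the same siRNA groups, against 31.6 ± 5.37 in siGLO cells. Without the mouse term the differences of both genes from siGLO were smaller than their SE, and with it none reached an unadjusted p of 0.05.

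Cd244 and Cd84 are SLAM family receptors, which recruit SAP-type adaptors and are known on mast cells; the Cd244 probe matched the gene now named Cd244a. Cd244 had scaled counts of 1549, 1237 and 1644 in si12A cells, 1432, 1063 and 1909 in si12C cells, 1715, 1233 and 1852 in si12A+C cells, and 1536, 1228 and 1926 in siGLO cells of mice 1, 2 and 3. Cd84 had 372, 244 and 395 in si12A cells, 382, 179 and 435 in si12C cells, 347, 176 and 404 in si12A+C cells, and 405, 145 and 398 in siGLO cells. For both genes the groups overlapped and mouse 2 was lowest in each group. The log2 differences from siGLO over the 3 siRNA groups ran from -0.09 to 0.03 for Cd244 and from -0.03 to 0.09 for Cd84. Standard errors were 0.25 and 0.45 without the mouse, and 0.10 and up to 0.15 with it as a block.

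Cd47, the "don't eat me" signal read by SIRPα on phagocytes, had scaled counts of 709, 633 and 623 in si12A cells, 718, 660 and 497 in si12C cells, 512, 567 and 625 in si12A+C cells, and 698, 624 and 583 in siGLO cells of mice 1, 2 and 3. The groups overlapped, and its log2 differences from siGLO ran from -0.16 to 0.04. Cd151, a tetraspanin that partners laminin-binding integrins, had 78.4, 44.4 and 76.4 in si12A cells, 85.2, 34.2 and 74.8 in si12C cells, 81.7, 49.5 and 80.8 in si12A+C cells, and 78.0, 56.6 and 87.1 in siGLO cells. Its groups overlapped too, and mouse 2 was the lowest in each.

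Cd40, the TNF receptor family member through which T cells bearing CD40L license antigen-presenting cells, had its lowest values in si12A cells. It had 22.8, 17.1 and 14.7 in si12A cells, 27.0, 101 and 36.0 in si12C cells, 62.6, 65.2 and 16.8 in si12A+C cells, and 32.1, 48.7 and 43.0 in siGLO cells of mice 1, 2 and 3. The si12A libraries lay below all si12C and all siGLO libraries but overlapped with si12A+C. The log2 difference was -1.17 ± 0.58 for si12A against siGLO, -1.56 ± 0.57 for si12A against si12C and 1.38 ± 0.57 for si12A+C against si12A (SE; adjusted p = 0.581, 0.632 and 0.999, and 0.117, 0.061 and 0.272 with the block). Raw counts were 27, 15 and 20 in si12A cells, where 2 of 3 libraries were at or below background, so the true ratio could not be measured. The summed scaled counts of the 12 macrophage and monocyte markers were also lower in si12A cells, at 195 to 236, against 245 to 362 in siGLO cells, with no overlap. Among them Cx3cr1 averaged 72.0 in si12A, 87.4 in si12C, 62.4 in si12A+C and 131 in siGLO cells. Adgre1 averaged 22.2, 38.5, 46.7 and 40.0 in the same order. C1qa, C1qb, Siglec1 and Mpeg1 went the other way, higher in si12A than in siGLO cells, and these and Csf1r were below background. The sums were 208 to 333 in si12C and 192 to 314 in si12A+C cells, which overlapped with siGLO. For the other 5 marker lists the si12A and siGLO ranges overlapped. The part of these markers in the si12A differences of Cd40 or of any other member was not tested. Leaving out the si12C library of mouse 1 in the blocked fit brought si12A against si12C past the threshold (-1.83, adjusted p = 0.0484), as did leaving out mouse 1 (-1.96, adjusted p = 3.29e-06), while leaving out mouse 2 gave -0.81 (adjusted p = 0.481). For si12A against siGLO the difference was -1.53 without mouse 1 (adjusted p = 0.00063) and -0.77 without the siGLO library of mouse 3 (adjusted p = 0.376). The fit without mouse 1 called 64 of 465 probes for si12A against si12C and 74 for si12A against siGLO. The other members of this superfamily in the set, Cd27, Cd70 and Cd40lg, were not above background.

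Of the antigen-presenting molecules, Cd1d1 presents lipids to NKT cells and its neighboring copy Cd1d2 resembles it in sequence, so their probes may share signal. Cd1d1 had raw counts of 18 to 67, and Cd1d2 did not pass in any library. Cd1d1 averaged 30.2 ± 7.04 scaled counts in si12A, 36.5 ± 5.82 in si12C and 38.1 ± 13.4 in si12A+C cells, against 31.9 ± 14.0 in siGLO cells (SD, n = 3 each), and its differences from siGLO were smaller than their SE in both fits. Cd74 averaged 20.5 ± 3.39 in si12A+C cells, 12.2 ± 3.35 in si12A cells, 12.9 ± 2.84 in si12C cells and 15.2 ± 3.00 in siGLO cells (SD, n = 3 each). Its si12A+C minus si12A difference was 0.76 ± 0.29 on the log2 scale (SE; adjusted p = 0.999, and 0.321 with the block), at counts near the controls.

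Of the pattern recognition and scavenger receptors, 2 of 6 were above background. Cd180, a TLR4-like receptor that pairs with MD-1, had 44.7, 44.4 and 59.5 in si12A cells, 34.8, 41.3 and 47.1 in si12C cells, 59.4, 53.4 and 53.6 in si12A+C cells, and 27.5, 47.2 and 48.3 in siGLO cells of mice 1, 2 and 3. The si12A+C libraries were above all siGLO and all si12C libraries. The si12A+C minus siGLO difference was 0.45 ± 0.26 on the log2 scale (SE; adjusted p = 0.898, and 0.22 with the block). In the blocked fit it was 0.47, and 0.27 without either the siGLO or the si12A+C library of mouse 1. Cd68, a lysosomal glycoprotein, averaged 73.5 ± 19.7 in si12A+C, 60.6 ± 10.4 in si12A and 53.2 ± 13.8 in si12C cells, against 68.2 ± 7.47 in siGLO cells (SD, n = 3 each). Its si12A+C minus si12C difference was 0.47 ± 0.27 on the log2 scale (SE; adjusted p = 0.993, and 0.176 with the block). Cd14, Cd36, Cd163 and Cd209e did not pass the background rule.

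Cd99 averaged 31.8 ± 6.35 in si12A, 28.5 ± 4.93 in si12C and 18.8 ± 7.28 in si12A+C cells, against 17.7 ± 5.91 in siGLO cells (SD, n = 3 each). The si12A and the si12C libraries were both above all siGLO libraries. The log2 difference was 0.80 ± 0.33 for si12A against siGLO and -0.72 ± 0.32 for si12A+C against si12A (SE; adjusted p = 0.581 and 0.999, and 0.135 and 0.349 with the block). The siGLO counts of 22, 7 and 21 were mostly below background, and the ratio of si12A to siGLO was 1.63, 3.41 and 1.13 in mice 1, 2 and 3. Without mouse 2 the log2 difference was 0.44 (adjusted p = 0.689). Cd247 averaged 20.1 ± 5.48 in si12A, 20.1 ± 8.5 in si12C and 18.4 ± 4.93 in si12A+C cells, against 22.9 ± 6.47 in siGLO cells, with differences smaller than their SE in both fits.

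Across the 17 tested genes, edgeR's quasi-likelihood test with Benjamini-Hochberg adjustment over 496 probes called 0 in each of the 7 comparisons, with or without the mouse as a block. DESeq2 called 0 of them without the block. With the block DESeq2 called Cd69 in si12A against siGLO and Cd40 in si12A against si12C, where it called 36 and 26 of the 496 probes. The share of all tested probes that edgeR called sets the scale for its counts. For si12A against siGLO it was 0% without the block and 5.44% with it, a rate at which about 1 of 17 genes would be called. Unadjusted p-values of at most 0.05 were found for 2 members, against 7.66% of all probes, and for 5 members with the block, against 29.6%. The si12A and siGLO libraries did not overlap for 3 members (Cd69, Cd99 and Cd40), against 15.1% of all probes. These shares, 2, 5 and 3 of 17, lay near the background in all cases.

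For si12C against siGLO the call rate was 0% without the block and 0.403% with it. Unadjusted p-values of at most 0.05 were found for 0 members (0.403% of all probes) and, with the block, for 1 member (6.05%), which was Cd69. Libraries did not overlap for Cd69 and Cd99, against 3.23% of all probes. For si12A+C against siGLO the call rate was 0% without the block and 6.05% with it, with 1 member at an unadjusted p of at most 0.05 (6.65% of all probes) and 2 members with the block (20.6%), Cd69 and Cd180. The same 2 genes had libraries that did not overlap, against 9.48% of all probes. The median log2 difference of the members from siGLO was -0.07 in si12A cells against 0.02 over all 496 probes, -0.02 in si12C cells against -0.0037, and 0.08 in si12A+C cells against 0.01. Members with an unadjusted p above 0.05 in both fits ran from -0.33 to 0.28 in si12A, -0.35 to 0.64 in si12C and -0.33 to 0.43 in si12A+C cells.

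**Figure D3:**
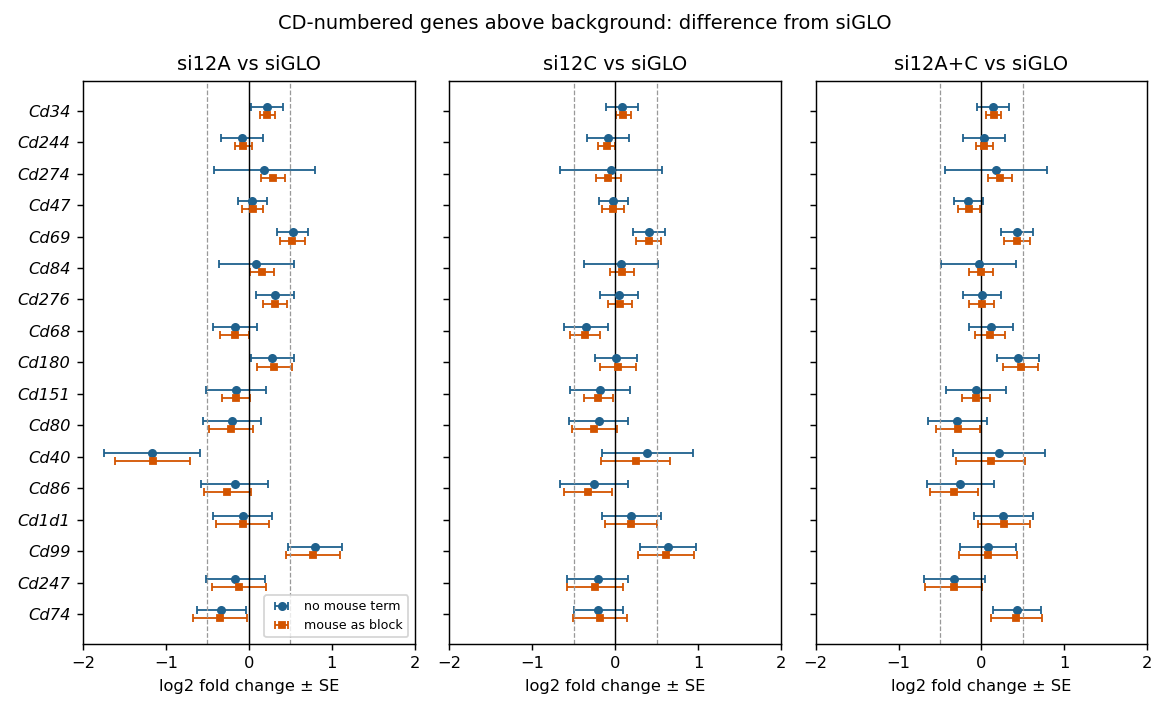
Log2 fold change against siGLO ± SE of the 17 CD-numbered genes above background, in si12A, si12C and si12A+C cells, from the fit without a mouse term (circles) and with the mouse as a block (squares). Dashed lines mark 0.5 in either direction. Cd69 is positive in the 3 panels (0.41 to 0.53), and the widest departures, for Cd40 and Cd99, belong to genes near background.

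Between the siRNA groups themselves, si12A+C against si12A had a call rate of 0% in both fits. It had 3 members at an unadjusted p of at most 0.05 (Cd40, Cd74 and Cd99; 2.82% of all probes) and 4 with the block, which added Cd276 (14.1%). Cd74 was above background in 2 si12A+C, 1 siGLO and no si12A or si12C libraries, so it entered the test only through groups where it was high, and its difference cannot be read as support. Cd99 was above background in 3 si12A and 2 si12C libraries, where it was high, and in 1 si12A+C and 1 siGLO library. For si12A+C against si12C the call rate was 0% without the block and 3.02% with it, with 0 members at an unadjusted p of at most 0.05 (3.02% of all probes) and 1 with the block, Cd68 (19.6%). For si12A against si12C the call rate was 0% without the block and 4.84% with it, with 1 member at an unadjusted p of at most 0.05 (Cd40; 5.65% of all probes) and 2 with the block, which added Cd274 (27.4%).

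The interaction asks whether both siRNAs together did something other than the sum of each alone on the log2 scale. Its call rate was 0% in both fits, and 2 members had an unadjusted p of at most 0.05 (Cd74 and Cd99; 1.61% of all probes), or 3 with the block (Cd68, Cd69 and Cd99; 8.06%). Cd74 is again there only through the si12A+C and siGLO libraries, the groups with a plus sign in this contrast. Cd99 passed in 3 si12A and 2 si12C libraries, the groups with a minus sign, and in 1 si12A+C and 1 siGLO library. Without the groups where it was high it would not have met the rule of 3 samples. The interaction of Cd74 or Cd99 cannot be read as support. The interaction was -1.36 ± 0.47 for Cd99, 0.97 ± 0.41 for Cd74, 0.64 ± 0.38 for Cd68 and -0.50 ± 0.27 for Cd69 on the log2 scale (SE; adjusted p = 0.999 each, and 0.543, 0.62, 0.543 and 0.543 with the block). The Cd99 value was -0.75 without mouse 2 and -2.15 without mouse 3, and that of Cd69 was -0.24 without mouse 2. For Cd69 the si12A+C level was close to that with either siRNA alone, with a log2 difference of -0.09 ± 0.19 from si12A and 0.03 ± 0.19 from si12C (SE; adjusted p = 0.999 and 0.993).

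Calls between siRNA groups also asked for a fold threshold, and the test between mice, with 4 libraries per mouse, did not, so their counts are not comparable. In the fit with siRNA group and mouse, 8 of the 17 genes differed between the 3 mice at an adjusted p of at most 0.05: Cd274, Cd84, Cd244, Cd151, Cd34, Cd86, Cd276 and Cd68. Over all tested probes 57.7% differed, so the members' count was near the background. Averaged over the 4 libraries of each mouse, Cd274 had 1396, 495 and 1510.0 scaled counts in mice 1, 2 and 3 (adjusted p = 6.8e-07), Cd84 had 377, 186 and 408 (adjusted p = 1.89e-05), Cd244 had 1558, 1190.0 and 1833 (adjusted p = 0.000193), and Cd151 had 80.8, 46.2 and 79.8 (adjusted p = 0.00093). The highest mean was 3.05, 2.19, 1.54 and 1.75 times the lowest. With the 20 reference probes as scaling Cd274 and Cd84 passed, and Cd244 and Cd151 did not (adjusted p = 0.461 and 0.112).

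For these 4 genes all 4 libraries of mouse 2 were below all 8 libraries of mice 1 and 3. The nearest values were 665 in mouse 2 and 1301 in mouse 1 for Cd274, and 244 and 347 for Cd84. The same held for 80 of the 286 probes that differed between mice (28%). Without mouse 2, 1 of the 17 genes, Cd34, differed between the remaining mice, and so did 12.6% of all probes. Not all members were low in mouse 2: Cd34 was lowest in mouse 1 (2182, 2761 and 2887 in mice 1, 2 and 3), and Cd86 was highest in mouse 2 (25.7, 37.7 and 22.2). Cd69 and Cd47 did not pass the test between mice (adjusted p = 0.629 and 0.41).

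**Figure D4:**
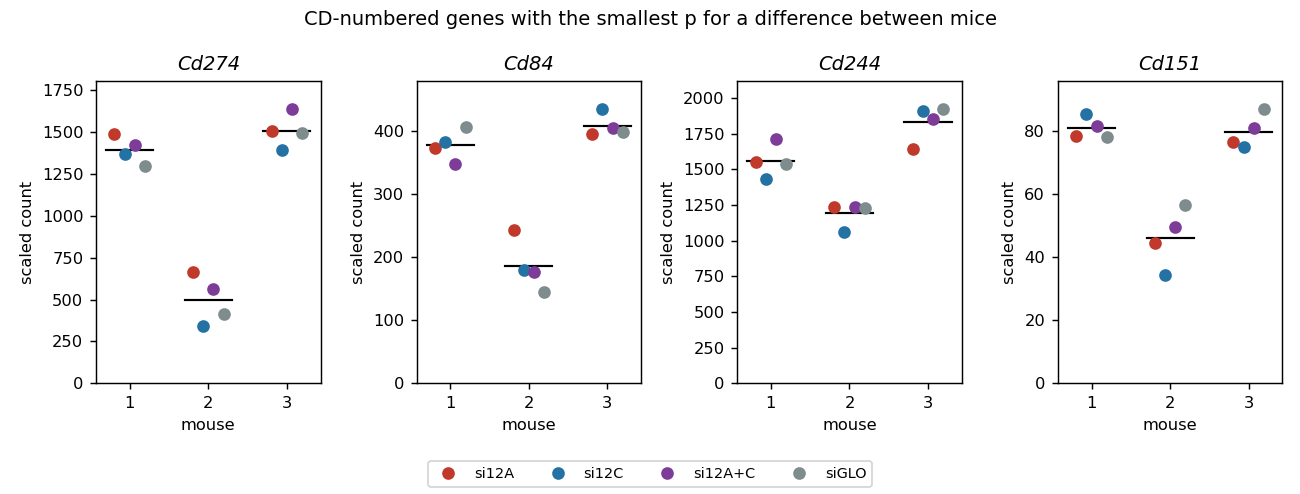
Scaled counts of Cd274, Cd84, Cd244 and Cd151 by mouse, with 1 point per library colored by siRNA group and a line at the mean of the 4 libraries. In each panel the 4 points of mouse 2 lie below the points of mice 1 and 3. For Cd274 the mouse means are 1396, 495 and 1510.0.

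Marker levels by mouse are given as ranges, without a test. Summed scaled counts of the mast cell markers were 183100 to 210200 in mouse 2, and 131200 to 174700 in mouse 1 and 154400 to 169400 in mouse 3. Kit, the receptor for stem cell factor, averaged 445 in mouse 2, and 801 and 679 in mice 1 and 3, and Cpa3, mast cell carboxypeptidase, averaged 114200 in mouse 2, and 77950.0 and 80440.0 in mice 1 and 3. The summed macrophage and monocyte markers were 236 to 362 in mouse 2, 195 to 245 in mouse 1 and 192 to 287 in mouse 3, which overlap. The summed eosinophil markers were 191 to 220.2 in mouse 2, 249 to 351 in mouse 1 and 224 to 247 in mouse 3, without overlap. Siglecf averaged 87.3 in mouse 2, and 183 and 149 in mice 1 and 3, while Ccr3 averaged 64.3 in mouse 2, and 52.5 and 42.1 in mice 1 and 3. The neutrophil sums were 77.4 to 112 in mouse 2, 64.4 to 77.5 in mouse 1 and 64.7 to 91.5 in mouse 3, and the dendritic cell sums 44.3 to 75.5 in mouse 2, 40.9 to 65.7 in mouse 1 and 41.2 to 50.4 in mouse 3. The lymphocyte sums were 359.6 to 420 in mouse 2, 321 to 437.5 in mouse 1 and 256 to 302 in mouse 3. The part of cell makeup, culture age or library depth in the differences between mice was not tested, and the mouse, its culture and its libraries cannot be told apart.

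Genes related to the members by function but named otherwise were read beside them. Of 33 such genes above background, 17 differed between mice, 6 of them lowest and 11 highest in mouse 2. Over all tested probes 57.7% differed, so this count too was near the background. Pdcd1lg2, which encodes PD-L2, the other ligand of PD-1, averaged 52.8 in mouse 2, and 115 and 147 in mice 1 and 3 (adjusted p = 1.91e-06), the same order as Cd274. Tlr4, the LPS receptor, averaged 31.6 in mouse 2, and 130 and 142 in mice 1 and 3 (adjusted p = 1.07e-07). Vsir, which encodes the checkpoint protein VISTA, went the other way, with 104.0 in mouse 2, and 33.2 and 39.5 in mice 1 and 3 (adjusted p = 1.52e-06).

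Between siRNA groups, the tetraspanin Tspan8 was the 1 gene of these 33 that was called, and it was called with the block only. It was lower in si12A and in si12A+C cells than in siGLO cells (log2 difference -1.83 ± 0.18 and -1.83 ± 0.19, SE; adjusted p = 8.57e-05 and 0.000112), and lower in both than in si12C cells. Cd151, the tetraspanin among the CD-numbered genes, had a log2 difference of -0.16 ± 0.17 for si12A in the same fit (adjusted p = 0.564). Of 7 further B7, CD28 and checkpoint genes, 4 TNF superfamily costimulators, 5 Toll-like receptors, 6 MHC class II genes, 9 integrins and adhesion receptors and the CD47 receptor Sirpa, no gene was called in either edgeR fit.

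Promoter windows of the members were read from RefSeq (GRCm38.p6, 250 bases before to 50 after the start of the transcript). Windows of 16 of the 29 genes were read, 19 in all, and 10 of the 16 genes were above background. Cd14, Cd74 and Cd244 were not among the 16. The counts below therefore describe the genes read, and not every member that may have a window. On both strands the windows were searched for the AP-1 letters TGANTCA, for the GATA letters, which are AGATAA, and for a kappaB-type and an interferon-type decamer (GGG and CC with 5 bases between them, and GAAA repeated after 2 bases). No matches overlapped in the windows printed. AP-1 letters were found in 3 of the 16 genes (Cd68, Cd80 and Cd84), against 7.81% of all 32851 windows, GATA letters in 4 (Cd209e, Cd274, Cd38 and Cd44; 11.2% of all), kappaB-type letters in 9 (50.8% of all), and interferon-type letters in 0 (3.44% of all). A member was counted if any of its windows matched, while the shares over all are of single windows. A match is a stretch of letters and not a binding site, and kappaB-type letters, in particular, are common.

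The windows of Cd274 and Cd84 are shown because both genes were lowest in the 4 libraries of mouse 2. Cd274 lies on chromosome 19 (chr19:29362107-29388095) and its window, on the plus strand, is chr19:29367188-29367487. Cd84 lies on chromosome 1 (chr1:171839697-171890718) and its window, on the plus strand, is chr1:171839447-171839746. Capitals mark the motif matches: GATA letters at positions 143 to 148 and 239 to 244 of the Cd274 window, and AP-1 letters at 22 to 28 and kappaB-type letters at 209 to 218 of the Cd84 window, counted from the 5′ end. The 2 windows shared no motif of the 4.
Cd274 promoter: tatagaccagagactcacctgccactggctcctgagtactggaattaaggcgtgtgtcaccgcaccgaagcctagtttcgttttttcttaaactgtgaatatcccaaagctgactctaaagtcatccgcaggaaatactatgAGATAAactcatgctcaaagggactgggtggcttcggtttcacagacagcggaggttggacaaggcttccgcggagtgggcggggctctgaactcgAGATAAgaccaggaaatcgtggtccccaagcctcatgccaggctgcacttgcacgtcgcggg
Cd84 promoter: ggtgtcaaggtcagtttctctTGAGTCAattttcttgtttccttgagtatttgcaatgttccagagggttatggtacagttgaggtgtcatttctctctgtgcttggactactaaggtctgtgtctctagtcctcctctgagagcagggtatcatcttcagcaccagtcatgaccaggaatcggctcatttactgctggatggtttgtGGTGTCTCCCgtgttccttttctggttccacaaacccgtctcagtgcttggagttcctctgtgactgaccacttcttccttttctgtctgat

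The deposited table of log2 values held 10 of the 17 genes. Cd244 was not in it, although its raw counts were between 746 and 2315, and neither were Cd40, Cd74, Cd80, Cd86, Cd99 and Cd247, whose lowest raw counts were 7 to 19. The differences between mice were nearly absent from it: the SD of the 3 mouse means of Cd274 was 0.0065 on its log2 scale, against 0.923 on the log2 scale of the counts, and that of Cd84 was 0.0028 against 0.635. With limma on that table, Cd69 differed from siGLO by 0.50 in si12A, 0.37 in si12C and 0.39 in si12A+C cells on the log2 scale (adjusted p = 0.000429, 0.0109 and 0.00285), under the fold threshold of 0.5, and Cd180 by 0.57 for si12A+C (adjusted p = 0.001). Where a step before deposit took out differences between mice, a fit that does not count that step would give errors that are too small; no such step is described in the available sources.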

How the data were processed

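RNA (50 ng per sample) was counted on the NanoString Myeloid Innate Immunity Panel v2, in which a color-coded probe is counted for each transcript it binds. The authors deposited raw counts per probe, and the values show no scaling or subtraction. They further deposited log2 values of 325 probes, the number of transcripts that the study reports as expressed. The study names nSolver and Omics Playground for its analysis, but not the steps that gave these values. The log2 values served as an alternative only. The test took 476 endogenous probes above background (over their library's negative control mean plus 2 SD in 3 or more samples) and 20 reference probes. All 12 samples entered 1 edgeR fit (version 4.0.16, R 4.3.3; TMM scaling; quasi-likelihood test) with no mouse term, since the methods name none, and p-values were adjusted by Benjamini-Hochberg within each of 7 comparisons. The SE was obtained from the log2 difference and its F statistic. Library totals were 439015 to 795758 counts, with scaling factors of 0.636 to 1.36. Alternatives used DESeq2 1.42.0, limma 3.58.1, other scalings and filters, and left-out libraries. The edgeR fit, with and without the block, was run on simulated counts for si12A and si12C against siGLO, with the probe set fixed. The background filter, the interaction, the test between mice and the alternatives were not tested in this way.

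The series' design names 3 mice and the labels number the samples 1 to 3 in each group; the numbers were taken to mark the mouse and so to pair the samples. Deviations from the group means correlated at 0.137 to 0.859 between libraries of equal number (18 pairs) and at -0.745 to 0.63 between others (36 pairs). No libraries of a group agreed within sampling noise (lowest chi-square per degree of freedom 15).

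All members were named. Values in every library were given for the 6 with the highest mean scaled count in siGLO cells and the 4 with the smallest p between mice, and log2 differences where an unadjusted p was at most 0.05 in either fit. Cd40 and Cd180 were given by library too, chosen with their values seen. Members, lists and markers were chosen with earlier results of these data known. With 3 mice per group, p-values of the fit without a mouse term measure the spread between these cultures. Those of the blocked fit and of the test between mice measure the spread left after group and mouse are taken out. In the test between mice, the 4 libraries of a mouse act as its replicates.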

Additional observations from a re-analysis of the deposited data

Results flagged for a closer look

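Cd68, the lysosomal glycoprotein, stood out because its values with and without the Zc3h12a siRNA were ordered in opposite ways in cells without and with the Zc3h12c siRNA. In each of the 3 mice the si12A library was below the siGLO library, with ratios of 0.93, 0.817 and 0.908. The si12A+C libraries had scaled counts of 74.2, 53.4 and 92.8 in mice 1, 2 and 3, each above the si12C library of the same mouse with 52.2, 39.9 and 67.4. The difference of the 2 effects was 0.635 ± 0.377 on the log2 scale (SE) and did not pass edgeR's test (adjusted p = 0.999, and 0.543 with the mouse as a block). With limma on the deposited log2 table it was 0.68 and passed (adjusted p = 0.0128), and no other setting that was run passed it.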

How the results depend on the processing

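The main edgeR fit called 0 members in all comparisons, and the replicate block kept each of these counts at 0. It did move counts over all probes, to 27, 2 and 30 for si12A, si12C and si12A+C against siGLO, 15 for si12A+C against si12C and 24 for si12A against si12C, from 0 each. The scaling had the widest effect. The 5 well-detected reference probes as scaling, with the block, called 5 members for si12A against siGLO (Cd274, Cd276, Cd34, Cd69 and Cd99; 103 of 496 probes in all), 3 for si12A+C against siGLO (Cd180, Cd274 and Cd69; 96 in all), 6 for si12A+C against si12C (Cd151, Cd180, Cd244, Cd274, Cd68 and Cd74; 113 in all) and 2 for si12A against si12C (Cd274 and Cd276; 112 in all). Cd74 was above background in 2 si12A+C and 1 siGLO libraries and in no si12C library. Its call for si12A+C against si12C therefore cannot be read as support. The scaling by the 5 well-detected reference probes moved the median log2 difference of all probes to 0.285 for si12A and 0.35 for si12A+C against siGLO. All 20 reference probes moved that of si12A+C to 0.171. The positive controls as scaling, with the block, moved the median to -0.377 for si12A against siGLO, called 1 member there and 1 for si12A against si12C (Cd40 in both; 95 and 52 probes in all), and turned the difference of si12A from siGLO to -0.0798 for Cd276 and -0.179 for Cd34. DESeq2 with the block called 1 member for si12A against siGLO (Cd69) and 1 for si12A against si12C (Cd40), of 36 and 26 probes in all. Limma on the log2 table called 1 member for si12A+C against siGLO (Cd180) and 1 for the interaction (Cd68), of 40 and 19 probes in all. Leaving out mice or libraries gave 0 to 2 members for si12A against siGLO (Cd40 and Cd69 without mouse 1) and 0 to 1 for si12A against si12C (Cd40 without mouse 1, or without its si12C library). The blocked fit without mouse 1 tested 15 members. It called 74 of 465 probes for si12A against siGLO and 64 for si12A against si12C, so the members' calls there did not exceed the background. Without the si12C library of mouse 1, 9 of 491 probes were called for si12A against si12C. Members that differed between mice numbered 8 (57.7% of all probes), and 5 with positive control scaling (44.2%), 5 with DESeq2's likelihood ratio test (49%) and 1 to 7 with a mouse left out (12.6% to 62.4%). Members above background numbered 17, and 9 where all 12 samples had to pass. Among 421 alternatives of the log2 differences named, 2 reversed and 18 became calls; the cause of these changes was not tested. Depth limits the genes near background, Cd40, Cd74 and Cd99 among them.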
